A study of Mus musculus with 6 samples.

Results

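Motor proteins carry cargo along microtubules, and the genes described here encode the kinesins, the kinesin light chains and the subunits of cytoplasmic dynein. They are the protein-coding genes whose GENCODE M21 symbol begins with Kif, Klc or Dync followed by a number, and 49 of the 37086 genes in the deposited tables met that rule. By textbook function 17 were placed in axonal transport, 12 in mitosis, 9 in cilia and centrioles, and 11 in none of these. The rule used names and not measured values. Kifc1, Cenpe and other motors whose symbols differ were outside it.

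Kinesins of the axon walk towards the growing end of microtubules and so carry vesicles, mitochondria and neurofilament subunits away from the cell body, while cytoplasmic dynein carries endosomes and survival signals back to it. A sensory neuron of the dorsal root ganglion, which sends a single long axon to the skin and the spinal cord, depends on both. Mitotic kinesins build the spindle, move chromosomes and organise the midzone of dividing cells, and are transcribed mainly before and during division.

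The tissue was taken from mouse embryos of the C57BL/6J strain, wild type and 14.5 days post coitum, and the dorsal root ganglia of 18 embryos were pooled before the RNA was made. The RNA was made into 6 libraries with SMARTer low-input kits, in which oligo(dT) primes the cDNA. The high-volume group took the RNA in 9 µl and the low-volume group in 1 µl, with 3, 10 and 30 ng of RNA in each and 1 library for each combination. No perturbation was made. Since every library was drawn from the same RNA, each SD, SE and p-value below measures the technical spread and not that between animals.

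The chosen transcripts held 14160401, 23511774 and 25867706 tags (counted reads) in the high-volume libraries at 3, 10 and 30 ng, against 15920967, 26826267 and 31524211 in the low-volume libraries. Motor genes took 0.247% to 0.263% of them in the high-volume libraries and 0.255% to 0.275% in the low-volume libraries. The 3 ng libraries stood apart: the correlation of log2 expression over genes was 0.84 between the 2 libraries of 3 ng, and 0.97 to 0.98 among those of 10 and 30 ng. The tissue label fitted its markers, since the means of all 8 sensory neuron genes were at 10 RPKM (tags per kilobase of exon, scaled to library depth) or above, with a median of 244. Cycling cells were also present: all 8 of their markers were at 1 or more and 3 were at 10 or more, with Cdk1, the kinase that drives entry into mitosis, at 17.7 ± 2.15 (SD, n = 6). Other cells were present too, with 4 of 6 markers of glia, 1 of 4 of endothelium, 3 of 4 of fibroblasts, 3 of 4 of erythroid cells and 2 of 4 of macrophages at 10 or more.

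Axonal motors were the abundant class and mitotic motors were present at a lower level. Of the 17 axonal motors, 13 averaged 10 RPKM or more over the 6 libraries and 0 were under 1. Of the 12 mitotic motors, 2 reached 10, and 4 were under 1. Among the 9 ciliary motors 1 reached 10 and 7 were under 1, and among the 11 others 1 reached 10 and 5 were under 1. Over all 21487 protein-coding genes 20.6% reached 10 and 52.9% reached 1.

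**Figure D1:**
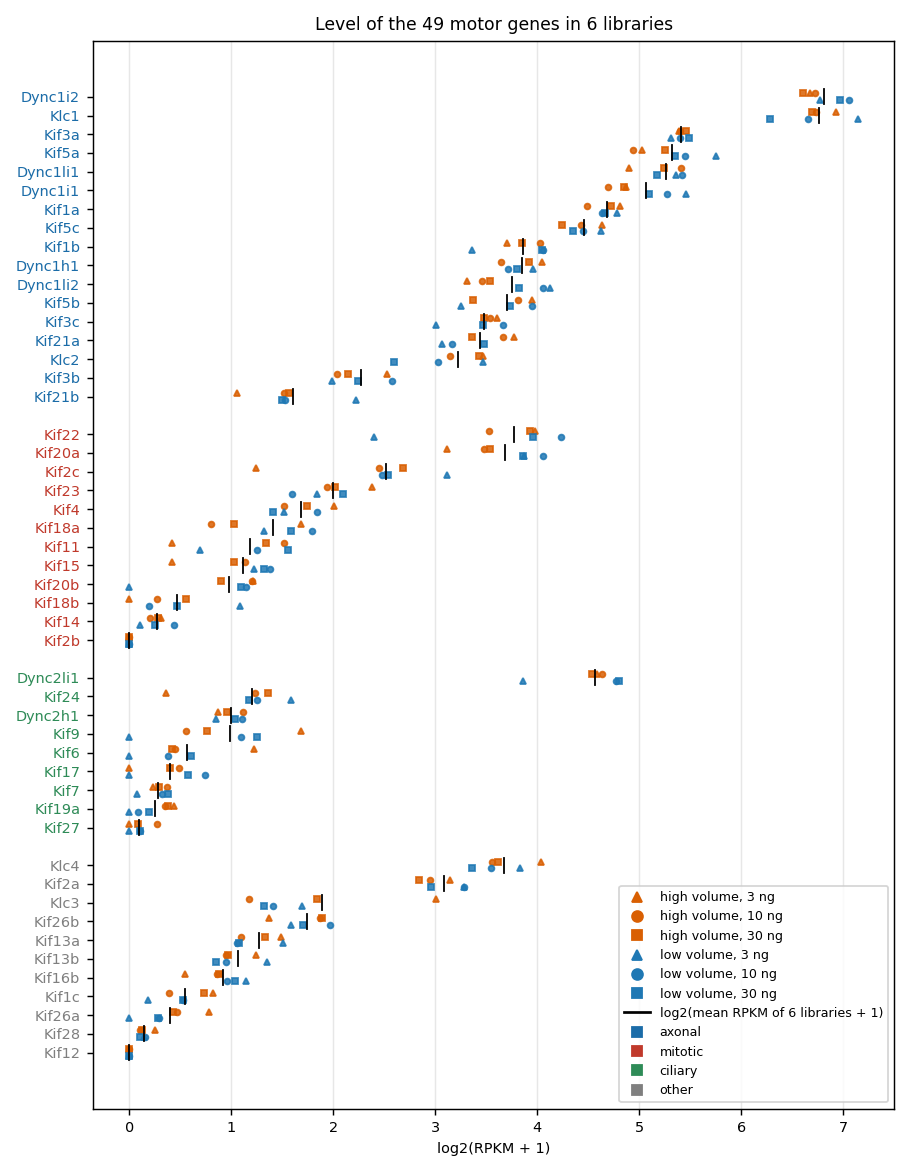
Level of each of the 49 motor genes as log2(RPKM + 1) on the x axis, with genes in rows by class and then by mean. Each symbol is 1 library, coloured by volume and shaped by input, and the black bar is the mean RPKM of the 6 libraries on the same scale. The axonal rows lie mostly to the right of the mitotic rows, and the symbols of the 3 ng libraries (triangles) lie farthest from the bar in many rows of low genes.

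The class median was 15.5, 15.3 and 14.1 RPKM for axonal motors in the high-volume libraries at 3, 10 and 30 ng, and 16.5, 15.6 and 15.5 in the low-volume libraries. For mitotic motors it was 1.34, 1.58 and 1.28 in the high-volume libraries and 1.41, 1.82 and 1.8 in the low-volume libraries. No library of either kind brought the class medians near each other. On the log2(RPKM + 1) scale the axonal median exceeded the mitotic by 2.70 ± 0.13 (SD, n = 6), with 2.56 to 2.86 in single libraries. Of the 204 combinations of an axonal and a mitotic motor, the axonal motor was higher in 182 to 192. Summed over the class, axonal motors held 501 ± 34.1 RPKM and mitotic motors 40.1 ± 6.23. The classes were set by known function, so the difference is given as a description, and in a bulk sample fewer cells of a type and less RNA per cell cannot be told apart.

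Kinesin-1 is the main carrier of vesicles, mitochondria and neurofilaments towards the axon tip, and its heavy chains are Kif5a and Kif5c, which are enriched in neurons, and Kif5b, which most cells express. Kif5c (chr2:49619298-49774778, plus strand) was at 23.8, 20.6 and 17.9 RPKM in the high-volume libraries at 3, 10 and 30 ng, and at 23.7, 20.8 and 19.3 in the low-volume libraries. Kif5b was at 14.4, 13 and 9.36 in the high-volume libraries and at 8.55, 14.5 and 12.3 in the low-volume libraries. Kif5a (chr10:127225696-127263363, minus strand) was at 31.6, 29.6 and 37.2 in the high-volume libraries and at 53.1, 42.7 and 39.9 in the low-volume libraries. The order Kif5a, Kif5c, Kif5b held within every library, so that the neuronal heavy chains were each above the general form.

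The differences within libraries were -0.84 ± 0.31 for Kif5c minus Kif5a, 0.78 ± 0.32 for Kif5c minus Kif5b and -1.62 ± 0.53 for Kif5b minus Kif5a on the log2(RPKM + 1) scale (SD, n = 6). In the third of the transcript nearest its end Kif5c exceeded Kif5b by 1.45 ± 0.44. In all, 16 pairs of motors were compared in this way, by an exact permutation test that flips the sign of each library's difference (two-sided). All 16 passed, each with an exact p of 0.0312, which is the smallest this test can give with 6 libraries, and an adjusted p of 0.0312. Each pair therefore had the same order in 6 of 6 libraries, and the sizes given below carry the information. With any library left out the smallest exact p is 0.0625, so that no pair can pass.

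**Figure D2:**
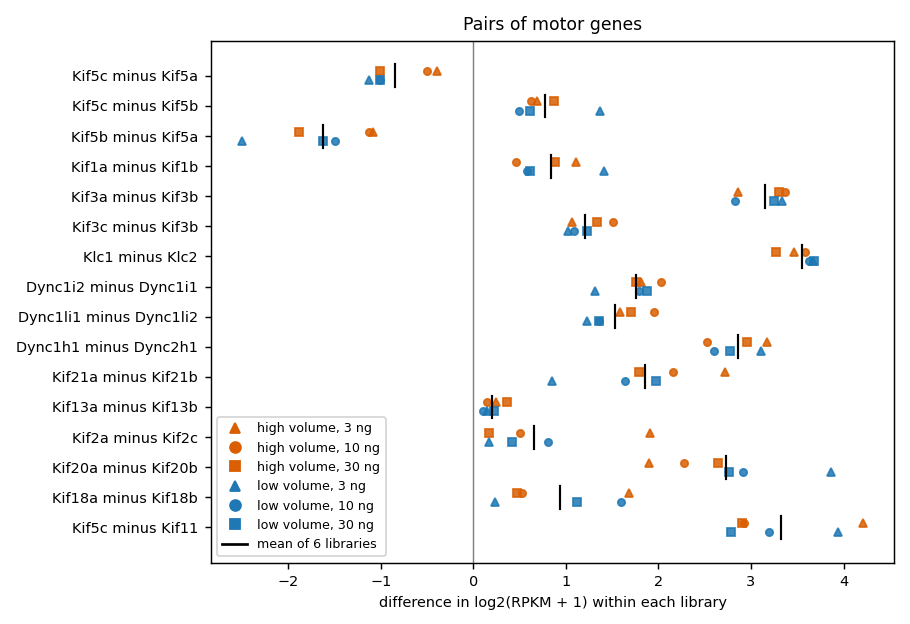
Difference in log2(RPKM + 1), first gene minus second, for 16 pairs of motor genes; each symbol is 1 library, coloured by volume and shaped by input, and the black bar is the mean of 6 libraries. All symbols of a row lie on the same side of 0, left of it for Kif5c minus Kif5a and Kif5b minus Kif5a and right of it for the other 14 pairs.

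The light chains couple kinesin-1 to its cargo. Klc1 (chr12:111772319-111794895, plus strand), the neuronal form, was at 121, 105 and 103 RPKM in the high-volume libraries at 3, 10 and 30 ng, and at 141, 99.5 and 76.7 in the low-volume libraries. Klc2, which is expressed widely, was at 10.1, 7.86 and 9.78 in the high-volume libraries and at 10.1, 7.15 and 5.06 in the low-volume libraries. Klc1 was more abundant than any kinesin heavy chain in every library, and it exceeded Klc2 by 3.55 ± 0.16. Klc4, a further light chain, was at 15.4, 10.8 and 11.3 in the high-volume libraries and at 13.2, 10.7 and 9.26 in the low-volume libraries. Klc3, best known from spermatids, was at 7.05, 1.25 and 2.59 in the high-volume libraries and at 2.24, 1.66 and 1.5 in the low-volume libraries, but 32.3% of its exonic bases were shared with Ercc2 on the opposite strand. In its exons free of other genes the mean was 1.30 ± 1.61 RPKM, against 2.72 ± 2.18 over the whole transcript.

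Kinesin-3 motors carry precursors of synaptic vesicles and dense-core vesicles. Kif1a (chr1:93015456-93101865, minus strand), the neuronal member, was at 27.0, 21.5 and 25.5 RPKM in the high-volume libraries at 3, 10 and 30 ng, and at 26.5, 23.8 and 24.3 in the low-volume libraries. Kif1b (chr4:149176319-149307692, minus strand) was at 12.0, 15.3 and 13.4 in the high-volume libraries and at 9.30, 15.6 and 15.5 in the low-volume libraries. The levels of the 2 genes did not overlap, and Kif1a exceeded Kif1b by 0.84 ± 0.36. In the third of the transcript nearest its end the difference was 0.20 ± 0.31, with an adjusted exact p of 0.219, so the pair did not pass there. Over the union of the annotated exons the difference was 1.44 ± 0.35. Kif1c, which is found in many tissues, averaged 0.456 ± 0.229.

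Kif13a and Kif13b, kinesin-3 motors of endosomes and of lipid-signalling vesicles, were low. Kif13a was at 1.8, 1.13 and 1.51 RPKM in the high-volume libraries at 3, 10 and 30 ng, and at 1.83, 1.08 and 1.11 in the low-volume libraries. Kif13b was at 1.36, 0.925 and 0.956 in the high-volume libraries and at 1.55, 0.934 and 0.805 in the low-volume libraries. Their ranges overlapped across libraries, although Kif13a was higher within each, by 0.21 ± 0.09, and by 1.33 ± 0.46 in the third of the transcript nearest its end. The endosomal motor Kif16b averaged 0.887 ± 0.255.

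Heterotrimeric kinesin-2 pairs Kif3a with either Kif3b or Kif3c and an accessory subunit, Kifap3, and serves both the axon and the cilium. Kif3a (chr11:53567379-53601967, plus strand) was the most even of the abundant motors, at 40.9, 41.1 and 42.9 RPKM in the high-volume libraries at 3, 10 and 30 ng, and at 38.8, 41.2 and 44.1 in the low-volume libraries. Kif3c, the partner found mainly in neurons, was at 11.1, 10.6 and 10.2 in the high-volume libraries and at 7.03, 11.7 and 10.0 in the low-volume libraries. Kif3b was at 4.78, 3.10 and 3.43 in the high-volume libraries and at 2.96, 4.96 and 3.73 in the low-volume libraries. The common subunit thus exceeded either partner, and its difference from Kif3b was 3.16 ± 0.25.

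Kif3c exceeded Kif3b by 1.21 ± 0.19, with no overlap between the 2 genes. Of the exonic bases of Kif3c 44.0% were shared with a transcript on the opposite strand. In the 6 of its 8 exons free of other genes it was at 15.5 ± 2.83 RPKM. Those exons hold only 743 of its 6849 exonic bases. Kifap3 was at 40.4 ± 5.38, close to the level of Kif3a.

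Kif21a and Kif21b slow or pause microtubule growth and are found in axons and dendrites. Kif21a was at 12.7, 11.7 and 9.25 RPKM in the high-volume libraries at 3, 10 and 30 ng, and at 7.37, 7.96 and 10.1 in the low-volume libraries. Kif21b was at 1.08, 1.86 and 1.96 in the high-volume libraries and at 3.66, 1.88 and 1.83 in the low-volume libraries, with the highest value in a 3 ng library. Kif21a was the higher of them in all libraries, by 1.85 ± 0.62. The entry with the most tags for Kif21b is annotated as a target of nonsense-mediated decay.

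Cytoplasmic dynein consists of a heavy chain that holds the motor, intermediate chains that bind dynactin, and light intermediate chains that bind cargo adaptors. The intermediate chain Dync1i2 (chr2:71211741-71263303, plus strand) had the highest mean of all 49 genes, with 101, 105 and 96.4 RPKM in the high-volume libraries at 3, 10 and 30 ng, and 108, 132 and 124 in the low-volume libraries. Its paralog Dync1i1, which is neuronal, was at 28.3, 24.9 and 27.8 in the high-volume libraries and at 42.9, 37.6 and 33.2 in the low-volume libraries. In RPKM each of the low-volume libraries was above each of the high-volume libraries for both genes. With TMM scaling this held for Dync1i1 only of the pair, and for Dync1i2 the fitted log2 difference, high volume minus low volume, was -0.12 ± 0.11 (SE) with an adjusted p of 0.824 in edgeR. Dync1i2 exceeded Dync1i1 by 1.76 ± 0.24, but with tags over the union of the annotated exons the difference was 0.31 ± 0.24 and its adjusted exact p was 0.0667.

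The light intermediate chain Dync1li1 was at 28.8, 41.7 and 36.9 RPKM in the high-volume libraries at 3, 10 and 30 ng, and at 40.1, 41.8 and 35.1 in the low-volume libraries. Dync1li2 was at 8.91, 10.0 and 10.6 in the high-volume libraries and at 16.5, 15.6 and 13.1 in the low-volume libraries. Dync1li1 was higher throughout, by 1.53 ± 0.27, and the volumes did not overlap for Dync1li2.

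The heavy chain Dync1h1 was at 15.5, 11.5 and 14.1 RPKM in the high-volume libraries at 3, 10 and 30 ng, and at 14.6, 12.1 and 13 in the low-volume libraries. Dync2h1, the heavy chain of the dynein that returns cargo inside cilia, was at 0.833, 1.17 and 0.945 in the high-volume libraries and at 0.799, 1.16 and 1.05 in the low-volume libraries. The axonal heavy chain was therefore far above the ciliary, by 2.86 ± 0.27 and in the third nearest the end by 4.50 ± 0.48, and neither showed a split by volume.

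Mitotic motors were led by Kif22, a chromosome arm motor that pushes chromosomes to the spindle equator, and Kif20a, which works in cytokinesis. Kif22 (chr7:127027732-127042420, minus strand) was at 14.7, 10.5 and 14.2 RPKM in the high-volume libraries at 3, 10 and 30 ng, and at 4.27, 17.8 and 14.5 in the low-volume libraries. Kif20a was at 7.66, 10.2 and 10.6 in the high-volume libraries and at 13.6, 15.7 and 13.6 in the low-volume libraries. For Kif22 the low-volume 3 ng library was far below the rest, and for Kif20a the volumes did not overlap over the whole transcript. Of the exonic bases of Kif20a 35.3% were shared with Cdc23 on the opposite strand, and in the 16 of its 19 exons free of other genes the mean was 8.16 ± 2.04 against 11.9 ± 2.92 in the whole transcript. In those exons it was at 5.13, 6.28 and 8.91 in the high-volume libraries and at 8.45, 9.93 and 10.2 in the low-volume libraries, so that there the volumes overlapped.

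Kif20b, a motor of the late spindle, was at 1.32, 1.30 and 0.861 RPKM in the high-volume libraries at 3, 10 and 30 ng, and at 0, 1.21 and 1.14 in the low-volume libraries. The 3 ng library of low volume had no tag of Kif20b, against 114 to 215 tags in the other libraries. Kif20a exceeded Kif20b by 2.73 ± 0.67.

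Kif2c (MCAK) takes microtubules apart at kinetochores, and its relative Kif2a does so at spindle poles and in growing axons. Kif2a was at 7.86, 6.73 and 6.19 RPKM in the high-volume libraries at 3, 10 and 30 ng, and at 8.72, 8.75 and 6.77 in the low-volume libraries. Kif2c was at 1.36, 4.46 and 5.41 in the high-volume libraries and at 7.67, 4.58 and 4.82 in the low-volume libraries. The 3 ng libraries gave the lowest and the highest value of Kif2c. Over its whole transcript Kif2a was higher within each library, by 0.66 ± 0.66. In the third nearest the end it was higher by 0.37 ± 0.51, with an adjusted exact p of 0.143. Without the high-volume 3 ng library the difference over the whole transcript was 0.41 ± 0.27. Of the exonic bases of Kif2a 23.2% were shared with Dimt1 on the opposite strand. In its 19 of 20 exons free of other genes Kif2a was at 10.6, 4.73 and 6.80 in the high-volume libraries. There it was at 7.375, 7.18 and 5.62 in the low-volume libraries. In those exons it was thus below Kif2c in the low-volume 3 ng library and above it in the others.

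Kif23 and Kif4 organise the central spindle, and Kif11 (Eg5) drives the spindle poles apart. Kif23 was at 4.21, 2.84 and 3.04 RPKM in the high-volume libraries at 3, 10 and 30 ng, and at 2.57, 2.03 and 3.26 in the low-volume libraries. Kif4 was at 3.01, 1.87 and 2.35 in the high-volume libraries and at 1.86, 2.57 and 1.66 in the low-volume libraries. The volumes overlapped for both genes. Kif11 was at 0.335, 1.85 and 1.52 in the high-volume libraries and at 0.613, 1.38 and 1.95 in the low-volume libraries, with both 3 ng libraries lowest. The neuronal heavy chain Kif5c exceeded Kif11 by 3.33 ± 0.60.

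Kif18a and Kif18b trim microtubule ends during mitosis. Kif18a was at 2.21, 0.746 and 1.03 RPKM in the high-volume libraries at 3, 10 and 30 ng, and at 1.49, 2.47 and 1.99 in the low-volume libraries. Kif18b was at 0, 0.209 and 0.469 in the high-volume libraries and at 1.12, 0.145 and 0.381 in the low-volume libraries. Both genes varied widely relative to their level. Kif18a exceeded Kif18b by 0.94 ± 0.62, but by 0.29 ± 0.49 over the union of exons, with an adjusted exact p of 0.25, and by 0.72 ± 1.15 in the third nearest the end, with an adjusted exact p of 0.167. With a pseudocount of 0.1 the difference was 2.15 ± 1.56. Kif15, which assists Kif11, averaged 1.17 ± 0.458, Kif14, a cytokinesis motor, averaged 0.205 ± 0.0951, and Kif2b had no tag in any library, where a count of 0 allows up to 3 tags in each (counting error only).

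The promoters of the mitotic motors are shown because a short element set them apart from the axonal motors. TTTGAA is the core of the cell cycle genes homology region, at which repressor complexes hold mitotic genes silent outside division. The stretches below, taken from RefSeq promoters of build GRCm38.p6 on the strand of each gene, carry TTTGAA, or TTCAAA where it lies on the other strand, in capitals. Where a promoter holds more than 1, capitals mark that nearest the start site, and in Kif20b the next follows it directly in lower case.
Kif11 (chr19:37376346-37376385): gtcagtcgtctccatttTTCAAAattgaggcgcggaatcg
Kif15 (chr9:122951045-122951084): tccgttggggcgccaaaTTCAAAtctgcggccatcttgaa
Kif18b (chr11:102925099-102925138): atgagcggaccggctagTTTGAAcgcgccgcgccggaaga
Kif20b (chr19:34922348-34922387): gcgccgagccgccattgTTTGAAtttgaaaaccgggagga
Kif22 (chr7:127042415-127042454): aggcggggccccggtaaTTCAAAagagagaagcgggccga
Kif23 (chr9:61946775-61946814): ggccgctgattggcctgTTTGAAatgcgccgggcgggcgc
Kif4 (chrX:100626067-100626106): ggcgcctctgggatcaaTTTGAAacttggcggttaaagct
Kif14 (chr1:136467603-136467642): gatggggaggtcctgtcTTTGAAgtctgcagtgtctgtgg
Kif2c (chr4:117178853-117178892): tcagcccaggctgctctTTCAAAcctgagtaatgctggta

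A RefSeq promoter, 250 bases before to 50 bases after a start site, was found for 39 of the 49 motors. TTTGAA on either strand was present in 9 of 11 mitotic promoters and in 0 of 12 axonal promoters, against 15.3% of the promoters of 16287 protein-coding genes. It was also in 1 of 7 ciliary promoters and in 1 of 9 others, there in Kif26b, whose promoter lies 269313 bases from the start of its chosen transcript. In the first 7 genes listed the element printed in capitals began at base -19, -19, 4, 8, -17, 3 and 20 from the start site, counted without a base 0, whereas in Kif14 and Kif2c it began at -228 and -103. A second element began at -234 in Kif15, at -215 in Kif22 and at 14 in Kif20b. Within 30 bases of the start it was present in 7 of 11 mitotic promoters, 0 of 12 axonal promoters and 2.34% of all promoters, a window chosen after the positions were seen.

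The related core TTTAAA was in 2 of 11 mitotic promoters, 1 of 12 axonal promoters and 11.6% of all. CCAAT on either strand, the box bound by NF-Y, was in 7 of 11 mitotic promoters, 3 of 12 axonal promoters, 4 of 7 ciliary promoters and 38.6% of all. A promoter with CCAAT and either core occurred in 6 of 11 mitotic motors, 0 of 12 axonal motors, 2 of 7 ciliary motors and 9.71% of all. The promoters used for Kif2c and Klc1 lie 3867 and 13451 bases from the start of the chosen transcript. Among promoters within 1000 bases of that start, TTTGAA was in 8 of 10 mitotic, 0 of 11 axonal, 1 of 4 ciliary and 0 of 8 others. A match describes the letters in the window and was not tested as a binding site.

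Ciliary motors were low, with a single exception. Dync2li1, the light intermediate chain of the ciliary dynein, was at 23.0, 23.9 and 22.3 RPKM in the high-volume libraries at 3, 10 and 30 ng, and at 13.6, 26.4 and 26.9 in the low-volume libraries. It stood at 22.7 ± 4.82, while the heavy chain Dync2h1, with which it forms a complex, was at 0.992 ± 0.159. Kif24, which controls centriole capping, was at 0.281, 1.34 and 1.57 in the high-volume libraries and at 2.00, 1.38 and 1.25 in the low-volume libraries, in a transcript annotated as noncoding.

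Kif9, a motor of motile cilia, was at 2.21, 0.465 and 0.696 RPKM in the high-volume libraries at 3, 10 and 30 ng, and at 0, 1.14 and 1.38 in the low-volume libraries. Kif6, needed by ependymal cilia, was at 1.34, 0.362 and 0.332 in the high-volume libraries and at 0, 0.302 and 0.518 in the low-volume libraries. Each had its highest value in one 3 ng library and no tag in the other. The mean was 0.315 for Kif17, 0.215 for Kif7, the regulator of Hedgehog signalling at the cilium tip, 0.189 for Kif19a and 0.0703 for Kif27.

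Among the remaining motors Kif26b, which acts in cell adhesion in the embryonic kidney, was at 1.59, 2.65 and 2.69 RPKM in the high-volume libraries at 3, 10 and 30 ng, and at 2.01, 2.91 and 2.27 in the low-volume libraries. Its relative Kif26a, a repressor of growth factor signalling in enteric neurons, averaged 0.315 ± 0.240. Kif28 averaged 0.108 ± 0.0409 over the whole transcript and 0.0019 ± 0.0047 in the 22 of its 23 exons free of other genes, so that nearly all its tags lay in the exon shared with Ahctf1. Kif12 had no tag in any library.

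Several of the low motors had no tag at 3 ng. In the high-volume 3 ng library Kif17, Kif18b and Kif27 had no tag, and in the low-volume 3 ng library Kif17, Kif19a, Kif20b, Kif26a, Kif27, Kif6 and Kif9 had none. In each of the 10 and 30 ng libraries, only Kif2b and Kif12 were without a tag. Without both 3 ng libraries the axonal median exceeded the mitotic by 2.63 ± 0.09 on the log2(RPKM + 1) scale (SD, n = 4).

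Tags along the transcript were uneven in several long motors, and the first 7 sequences below are shown because the level was lower after them than before them, the other 2 because it was not. Tags were counted per exon, so the level of a stretch is that of the exons it crosses, weighted by length, and a step is placed no more closely than an exon. In Kif1a the 300 bases before the window stood at 48.5, 57 and 68.9 RPKM in the high-volume libraries at 3, 10 and 30 ng, and at 52.1, 55.6 and 72.5 in the low-volume libraries. The 300 bases after it stood at 7.43, 13.8 and 15.4 in the high-volume libraries and at 28.0, 9.58 and 9.17 in the low-volume libraries. The part before the window was higher in all 6 libraries, and its mean was 4.26 times that after it. In Kif1a and Kif1b the window encodes the lysine-rich loop of the kinesin-3 motor domain, and lysine is encoded by AAA and AAG. Capitals mark the 20 bases richest in A, in GENCODE M21 transcripts of GRCm38 and in the direction of the mRNA.
Kif1b (chr4:149263674-149265347, minus strand, across an intron): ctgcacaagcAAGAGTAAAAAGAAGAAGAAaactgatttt
Kif1a (chr1:93068547-93072313, minus strand, across an intron): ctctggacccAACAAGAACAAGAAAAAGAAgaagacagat
Kif5c (chr2:49710778-49710797, plus strand): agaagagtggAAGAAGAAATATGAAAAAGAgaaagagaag
Kif21a (chr15:90980798-90980817, minus strand): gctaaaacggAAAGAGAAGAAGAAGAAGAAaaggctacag
Kif3a (chr11:53586908-53586927, plus strand): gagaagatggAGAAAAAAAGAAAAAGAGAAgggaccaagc
Dync2h1, first (chr9:7144174-7144193, minus strand): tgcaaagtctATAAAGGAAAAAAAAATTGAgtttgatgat
Dync2h1, second (chr9:7083185-7083204, minus strand): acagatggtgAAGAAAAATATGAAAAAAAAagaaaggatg
Kif2a (chr13:106977095-106977114, minus strand): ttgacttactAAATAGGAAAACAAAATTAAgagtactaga
Dync2h1, last (chr9:6993985-6994004, minus strand): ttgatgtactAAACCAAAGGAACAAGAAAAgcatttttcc

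Across the window of Kif1b the mean was 13.1 times higher before than after it, and higher in all 6 libraries, although the high-volume 3 ng library held only 2.58 RPKM before it and neither 3 ng library had a tag after it. For Kif5c the ratio was 4.56, with 45.5, 42.4 and 41.3 before the window in the high-volume libraries at 3, 10 and 30 ng and 59.2, 29.1 and 27.8 in the low-volume libraries. After the window Kif5c stood at 8.19, 8.79 and 7.10 in the high-volume libraries and at 15.1, 8.18 and 6.44 in the low-volume libraries, and no library overlapped between the sides. The ratio was 2.55 for Kif21a, 2.55 for a window of Kif5b and 2.05 for Kif3a, each above 1 in 6 of 6 libraries. It was 5.07 at the window of Dync2h1 printed first, above 1 in 5 of 6 libraries. At the window of Dync2h1 printed second it was 4.65, above 1 in 6 of 6. Both lay at low levels, with 1.89 and 3.89 RPKM before and 0.372 and 0.837 after. A window of Dync2h1 between them, not printed, had a ratio of 0.67, above 1 in 1 of 6 libraries. At the window of Kif2a and the last of Dync2h1 printed above the ratio was 0.80 and 0.65. A stretch rich in A thus did not always mark a drop.

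**Figure D3:**
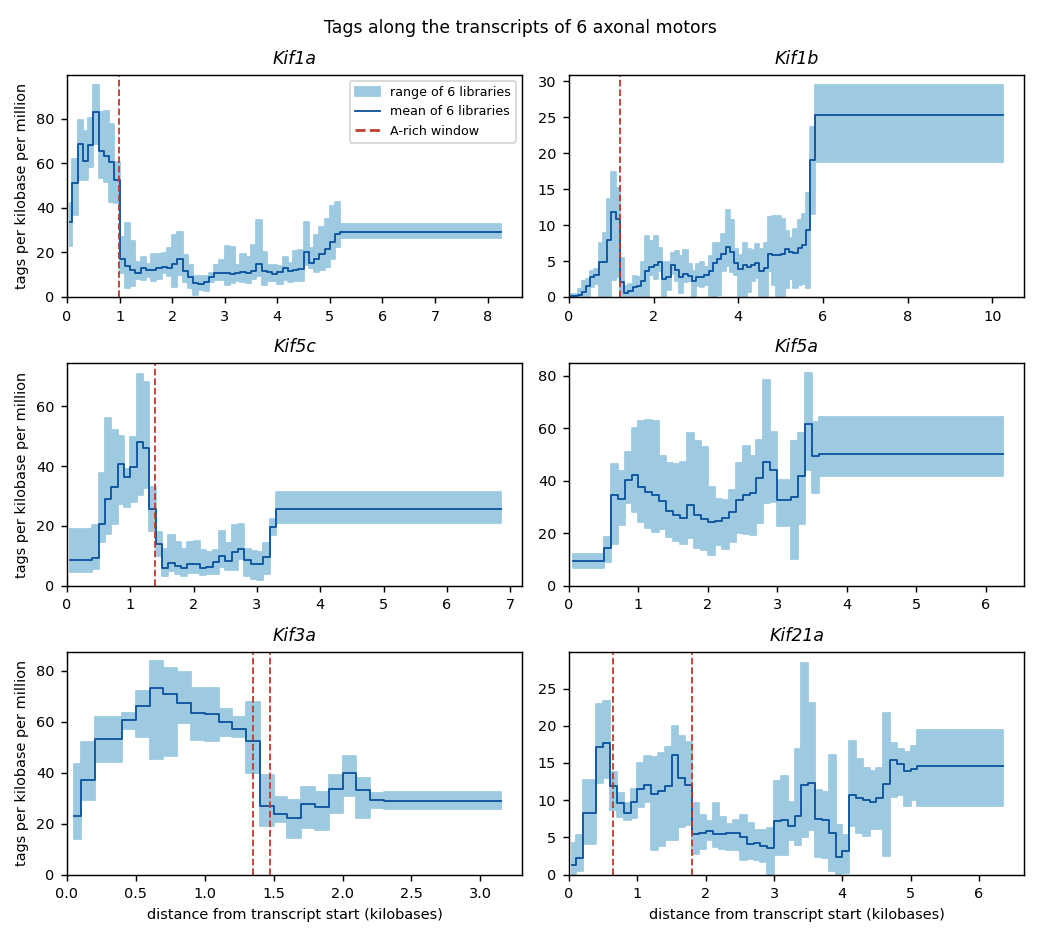
Tag density in RPKM along the chosen transcripts of 6 axonal motors, in bins of 100 bases against distance from the transcript start in kilobases, each bin carrying the density of its exons; the line is the mean and the band the range of 6 libraries, and dashed lines mark stretches of 20 bases with 14 or more A outside the last exon. The line falls beside a dashed line in Kif1a, Kif1b, Kif5c, Kif3a and the second of Kif21a, while Kif5a has no such stretch.

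Over the 26 motors with 1500 or more tags, 20 windows of 14 or more A in 20 bases lay outside the last exon with room for both flanks, in 9 genes. At 8 of them, or 40%, the level before was 2 or more times that after. At other positions over the 26 motors this held for 102 of 3600, or 2.83%. Those motors include 17 with no usable window, and positions within 300 bases of an A-rich window were left out. The positions overlap and share exons, and the thresholds were set after the profiles had been seen, so no test is given. The largest drop at an exon boundary was 2 times or more in 10 motors, and in 7 of these a window of 14 or more A lay within 120 bases. Of the 16 motors with a smaller drop, 2 had such a window near it. Dync1h1, Kif4 and Kif21b had drops of 5.34, 3.99 and 3.34 times with at most 10 A in 20 bases nearby. The first exon of Kif4 overlaps Pdzd11. The drop of Kif21b lay at a low level, from 0.418 to 0.125 RPKM, and was seen in 4 of 6 libraries. Those of Dync1h1 and Kif4 were seen in 6 of 6. Kif5a had no window of this kind and no drop above 1.34 times. The part of A-rich sequence in the drops was not tested.

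The ends of the messages were also read unequally. Among 29 motors with 1000 or more tags, the third of the exon bases at the end held a median of 1.86 times the density of the third at the start, from 0.513 in Kif3a to 41.8 in Dync1h1. The ratio was above 2 in 12 and below 1 in 5. For Dync1h1, the longest of these messages at 14342 bases, it was 79.2, 44.9 and 26.1 in the high-volume libraries at 3, 10 and 30 ng, and 23.9, 69.7 and 76.4 in the low-volume libraries. The end was denser in each library by a wide margin, which bears on every level per length given for this gene. Introns free of annotated exons held a median of 0.633% of the exon density.

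Kif1b is made with a short tail that carries mitochondria or a long tail that carries synaptic vesicle precursors. The exon of the short tail (4750 bases, chr4:149233734-149238483) stood at 1.54, 2.06 and 2.22 RPKM in the high-volume libraries at 3, 10 and 30 ng, and at 2.05, 2.60 and 2.56 in the low-volume libraries. The 26 exons of the long tail before its last exon stood at 5.41, 5.17 and 5.81 in the high-volume libraries and at 2.1, 5.57 and 5.62 in the low-volume libraries. The long tail was the higher in 6 of 6 libraries, but only just in the low-volume 3 ng library, and the log2 ratio of long to short was 1.13 ± 0.60 (SD, n = 6). The 5 long-tail exons nearest the branch were at 3.04 ± 0.966 and the last long-tail exon was at 25.4 ± 4.46, and in the low-volume 10 ng library those nearest the branch, at 2.26, were below the short-tail exon. Both the size and, in that library, the direction of the difference therefore depend on the exons taken.

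Klc1 messages end at either of 2 groups of exons. The near last exon (chr12:111794337-111794895) stood at 134, 129 and 114 RPKM in the high-volume libraries at 3, 10 and 30 ng, and at 136, 107 and 96.5 in the low-volume libraries. The far last exon (chr12:111806315-111806775) stood at 3.22, 6.46 and 5.69 in the high-volume libraries and at 6.02, 6.94 and 6.39 in the low-volume libraries. The near end was the main form in every library, with a log2 ratio of near to far of 4.40 ± 0.53 (SD, n = 6).

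**Figure D4:**
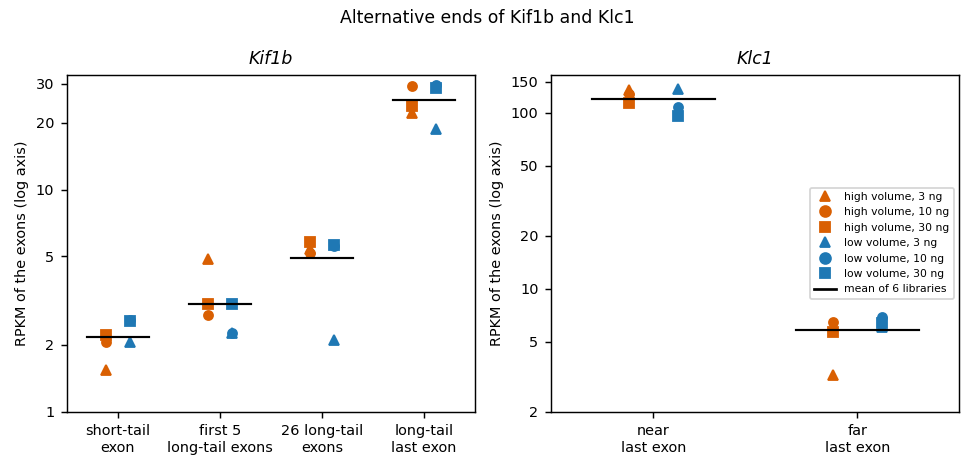
RPKM of exons found in only some forms of Kif1b (left) and Klc1 (right), on a log axis; each symbol is 1 library, coloured by volume and shaped by input, and the bar is the mean of 6 libraries. For Kif1b the short-tail exon has the lowest mean, 2.17 RPKM, and the last long-tail exon the highest, 25.4 RPKM; for Klc1 the near last exon is at 119 RPKM and the far at 5.79 RPKM.

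Alternative exons of at least 60 bases were taken where another protein-coding transcript skips the exon and joins its neighbours. Whether every transcript holds those neighbours was not checked. The 60-base exon of Dync1i2 (chr2:71233649-71233708) held 100% ± 12.0 of the density of its neighbours (SD, n = 6). The 60-base exon of Dync1i1 (chr6:5784439-5784498) held 118% ± 25.1. Those exons were thus read at the level of their neighbours. In Kif3a an exon of 126 bases was at 74.2% ± 10.6 and an exon of 72 bases at 1.75% ± 2.24. An exon of 129 bases in Kif21a was at 16.4% ± 10.6, and an exon of 114 bases in Kif2a varied from 21.4% to 104%. An exon of 108 bases in Kif21a varied from 0% to 220%. Overlapping exons of 123 and 66 bases in Kif2a were at 122% ± 41.7 and 142% ± 41. A further exon of Dync1i1 (166 bases, chr6:5730536-5730701) had no tag in any library, against 893 tags in its neighbours.

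No motor gene passed the threshold for reaction volume. Of 45 motors that passed the count filter, 0 were called at an adjusted p of 0.05 by edgeR's quasi-likelihood test with Benjamini-Hochberg adjustment, where 0.0062% of the 16120 genes tested were called. At an unadjusted p under 0.05 there were 4 motors, against 6.67% of all genes, and DESeq2 called 0 motors, where it called 1.11% of genes. The median log2 difference, high volume minus low volume, was 0.16 over the motors and 0.02 over all genes, with 31 of 45 motors and 51.9% of all genes above 0. With total-count scaling the median over all genes was -0.10 and that over the motors 0.04, with 26 of 45 motors and 40% of all genes above 0.

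**Figure D5:**
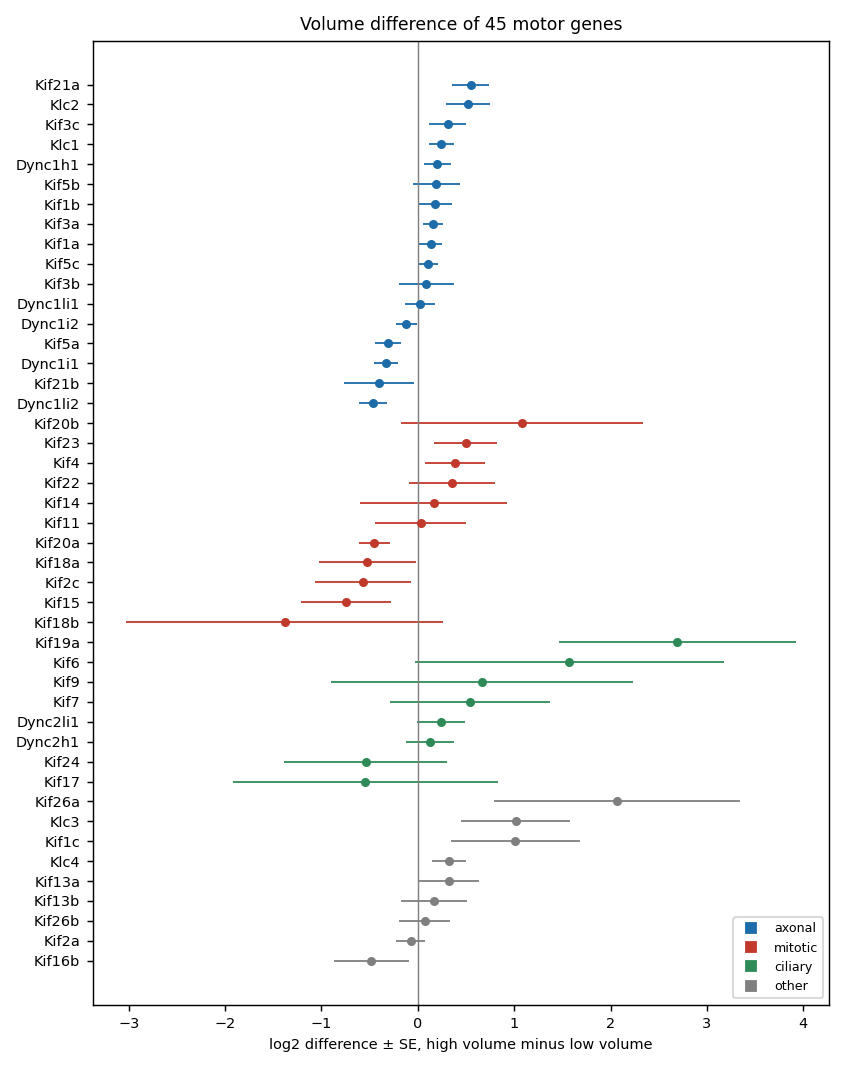
Log2 difference, high volume minus low volume, with its SE from the edgeR fit for the 45 motors tested, by class and then by size. The axonal motors lie between -0.46 (Dync1li2) and 0.55 (Kif21a), and the widest bars belong to low ciliary, mitotic and other motors.

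The 5 motors with the lowest unadjusted p were axonal or mitotic. Dync1li2 had a log2 difference of -0.46 ± 0.15 (SE), Kif20a of -0.45 ± 0.16, Kif21a of 0.55 ± 0.20, Dync1i1 of -0.33 ± 0.13 and Klc2 of 0.52 ± 0.23. Their adjusted p lay between 0.691 and 0.764 in the edgeR test. Dync1li2 and Dync1i1 were lower in each high-volume library than in any low-volume library. So was Kif20a over its whole transcript, but not in its exons free of Cdc23. In RPKM the same held for Dync1i2, Kif5a, Kif15 and Kif16b, and the reverse for Kif19a and Kif26a. The list depended on the scaling. With TMM scaling the volumes overlapped for Dync1i2 and Kif5a, while Kif3a was higher in each high-volume library than in any low-volume library. None of these differences passed, and the share of all genes split in this way was not counted. In the 10 and 30 ng libraries alone 0 motors were called, where 1.65% of genes were. With input as a block and a GC correction, 1 motor was called in those libraries, where 2.23% of genes were: Klc1, with a log2 difference of 0.33 ± 0.08 and an adjusted p of 0.0413 in edgeR, against 0.25 ± 0.13 and 0.787 in all 6 libraries. That fit rests on fewer libraries than the main fit and so has fewer than its 3 residual degrees of freedom.

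No motor passed the threshold for input either: 0 of 45 were called in the edgeR test, where 0% of the genes were called, and 3 motors had an unadjusted p under 0.05, against 7.77% of all genes. DESeq2 called 0 motors, where it called 0.223% of genes. For each doubling of input the log2 change was -0.17 ± 0.05 (SE) for Klc1, 0.57 ± 0.20 for Kif11, -0.10 ± 0.04 for Kif5c, -0.15 ± 0.06 for Klc4 and 0.14 ± 0.07 for Kif1b. The adjusted p was 0.625 to 0.628 for these 5, the lowest among the motors. Kif11 had 25 tags in the high-volume 3 ng library and 50 in the low-volume 3 ng library, which limits its slope.

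The partners of the motors ranged widely in level. All 55 partner genes on the list were found, 30 of them at 10 RPKM or above on average, and 0 were called for volume or for input. All 12 dynactin genes, the cofactor that makes dynein processive, reached 10, with a median of 84.7. Of 9 dynein light chains 7 did, led by Dynlrb1 and Dynll1 at 919 ± 36.7 and 566 ± 35.3. Of 16 kinesin adaptors 7 reached 10, with Fez1, an adaptor of kinesin-1, at 206 ± 45.7. Pafah1b1 (Lis1), the activator of dynein, was at 12.5 ± 0.878, and 3 of 8 dynein regulators reached 10. Of the 8 other spindle motors and partners 1 reached 10: Racgap1, the partner of Kif23 in the central spindle, at 13.9 ± 4.14. The kinetochore motor Cenpe was at 1.36 ± 0.481 and the minus-end motor Kifc1 at 0.270 ± 0.235, and 0 of 2 genes of the kinesin-14 list reached 10.

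Markers of dividing cells summed to 54.8, 67.1 and 65.3 RPKM in the high-volume libraries at 3, 10 and 30 ng, and to 78.5, 79.4 and 76.5 in the low-volume libraries. The 12 mitotic motors summed to 35.4, 35.3 and 40.8 in the high-volume libraries and to 34.6, 49.8 and 45 in the low-volume libraries. Sensory neuron markers summed to 5104, 4734 and 5414 in the high-volume libraries and to 6210, 5583 and 5878 in the low-volume libraries. Without Tubb3, neuronal tubulin and the most abundant of the 8, the sensory sums were 2579, 2470 and 2423 in the high-volume libraries and 2602, 2564 and 2522 in the low-volume libraries. The volumes thus overlapped for the sensory sum without Tubb3 and for the mitotic motors. For the sum of the markers of dividing cells the low-volume libraries were the higher. Of those 8 markers 0 were called for volume in edgeR. Mki67, Top2a and Cdk1 went the other way there, with log2 differences, high volume minus low volume, of 0.23, 0.13 and 0.16. The part of the marker sums in the motor values was not tested.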

How the data were processed

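Polyadenylated RNA of 1 pool of dorsal root ganglia was measured in 6 libraries, 3 for each reaction volume. The submitters' processing notes name TopHat2 2.0.8, Bowtie2 2.1.0, CASAVA 1.8 and build GRCm38.p1, without their roles. What counted the tags, and whether by strand, was not given in the sources used here. Per the file headers, the deposited tables hold a whole-number tag count and the authors' RPKM for every transcript, exon and intron. RPKM scales the count to feature length and library total, so the depth behind each value is the tag count.

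Of 93615 transcripts 89664 matched GENCODE M21. Each gene was represented by the transcript with the most tags over the libraries, and 17 of the 49 motors shared exonic bases with another gene. Classes, pairs, partner and marker lists and the motor genes were chosen with earlier results of these data known. Tag counts entered edgeR 4.0.16 under R 4.3.3 (TMM scaling, filterByExpr, quasi-likelihood test, volume and centred log2 input, 3 residual degrees of freedom) over 16120 genes, and SEs come from the F statistic; the test was checked on simulated counts. Pairs were compared on log2(RPKM + 1), a scale that understates differences of low genes. Exon densities are deposited counts per kilobase, scaled to library depth. Every motor is accounted for: values in each library are given for members of pairs and the 5 highest of each class, the others by mean, and for each contrast those called or else the 5 with the lowest p are named. Libraries of the same input deviated together over genes (correlation 0.13, 0.11 and 0.13 at 3, 10 and 30 ng). Those of 10 and 30 ng also did so across these inputs (0.10 and 0.07). Libraries of 3 ng against those of 10 or 30 ng gave -0.13 to -0.10. The deviations were taken from the mean of the 3 libraries of each volume and so sum to 0. Positive values for some inputs therefore bring negative ones for others. These correlations do not settle whether the inputs of 10 and 30 ng form separate pairs. Reaction volume and kit cannot be told apart. Without molecular identifiers, copies made by PCR count as separate tags. Alternatives were other scalings, DESeq2 1.42.0, filters, exon unions, pseudocounts and leaving out libraries. Free exons, levels under TMM scaling, marker sums without the top gene and promoters near the chosen start were added after the data were seen.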

Additional observations from a re-analysis of the deposited data

How the results depend on the processing

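The excess of axonal over mitotic motors kept its direction under all alternatives tried. It was 2.70 on the log2(RPKM + 1) scale and became 3.26 with a pseudocount of 0.1, 2.24 among motors with a mean RPKM of 1 or more, 2.88 with TPM, 3.31 in the third of the transcript nearest its end, 3.12 with motors enriched in neurons only and 3.62 with sums over each class; leaving out a library gave 2.67 to 2.73. All 16 pairs passed in the 6 libraries, 13 of those with both members at 1 or more, 14 over exon unions and 13 in the third nearest the end; the 7 pairs free of shared exonic bases all passed, and 0 pairs passed with any library left out, since 5 libraries cannot reach the threshold. For volume, 0 motors were called under 13 of 14 alternatives, and 1, Klc1, in the 10 and 30 ng libraries with a replicate block and a GC correction. With input as a replicate block and all 6 libraries 0 motors were called. For input, 0 were called under all 12 alternatives. The count of genes called moved more than that of motors: volume gave 1 gene in edgeR, 179 in DESeq2, 274 in the 10 and 30 ng libraries alone and 369 with block and GC correction, and input gave 0 in edgeR, 36 in DESeq2. A drop of 2 times or more was seen at 8 of 20 A-rich windows, at 9 of 44 with 13 or more A and at 4 of 6 with 15 or more A, settings added after the data were seen. Of the 16 motors under 1 RPKM some had no tag in a 3 ng library, although the low-volume 3 ng library held more tags than the high-volume one; the cause of this and of the changes above was not tested.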
